A study of Mus musculus with 6 samples.

Results

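Blood vessels of the retina were followed here through 48 genes in bulk RNA sequencing of whole retinas from control and *Yap* cKO mice. The genes were chosen by symbol as known markers of vessel wall cells and as factors that act on them, by a rule that uses no measured value but with earlier results of these data known, and all 48 were found among the 55421 genes of the count table. They comprised 23 endothelial genes, 8 genes of the blood-retinal barrier, 9 genes of mural cells and 8 angiogenic ligands. The 3 control mice (YR612, YR613, YR615) carried the Yapfl/fl genotype, and the 3 *Yap* cKO mice (YR711, YR713, YR714) carried Yapfl/fl;RaxCreERT2. Mice of both genotypes received 4OH-T, the hydroxylated form of tamoxifen, at P10 and P14, and retinas were taken at 2 months of age. In this line the recombinase is active in Müller glia and in the non-pigmented epithelium of the ciliary body, and vessel cells are not the cells targeted for deletion. Control animals had no Cre, and an effect of Cre or of its activation cannot be told apart from that of the deletion. Between 24261799 and 35067068 fragments per retina were assigned to genes. *Yap1* had 9.61 ± 0.189 TPM (SD, n = 3) in controls and 3.90 ± 0.12 TPM in *Yap* cKO retinas.

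The inner retina is fed by capillaries whose endothelial cells are sealed by tight junctions and carry dedicated transporters, which together form the inner blood-retinal barrier. Pericytes, the mural cells of capillaries, wrap this endothelium and are recruited by PDGF-B from endothelial cells. Müller glia and astrocytes surround the vessels and are a known source of VEGF-A and other factors that maintain them. The comparison asked whether the RNA of this neurovascular compartment differed between control and *Yap* cKO retinas. In whole retina, fewer cells of a type and less RNA per cell cannot be told apart.

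Most of the vascular genes lay close to their control level, as did most genes tested. Of the 48 genes, 47 had enough counts to be tested, and 44 of these differed by less than 1.5-fold between the groups. The same held for 15447 of all 16575 genes tested. A gene was called changed when its p from edgeR's quasi-likelihood test, adjusted by the Benjamini-Hochberg method over all 16575 genes tested, was 0.05 or lower, the fold change was at least 1.5, and the mean level reached 5 TPM (a level corrected for gene length and library size) in 1 of the groups. By these criteria 2 genes were called, *Vcam1* and *Vstm4*, and both were lower in *Yap* cKO retinas. That is 4.26% of the tested vascular genes, against 0.796% of all genes called in either direction and 0.585% called lower. The same 2 genes were those with an adjusted p of at most 0.05, which 1.49% of all genes had. An unadjusted p of at most 0.05 was found for 8 vascular genes (17.0%), 4 higher and 4 lower, against 21.4% of all genes tested. Retinas of the groups did not overlap for 9 vascular genes (19.1%), against 24.3% of all genes. On these last measures the share of vascular genes was no larger than that of the whole transcriptome. The median log2 fold change (*Yap* cKO over control) was -0.06 over the 47 genes, with 19 above and 28 below 0, and 0.00 over all genes tested.

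**Figure D1:**
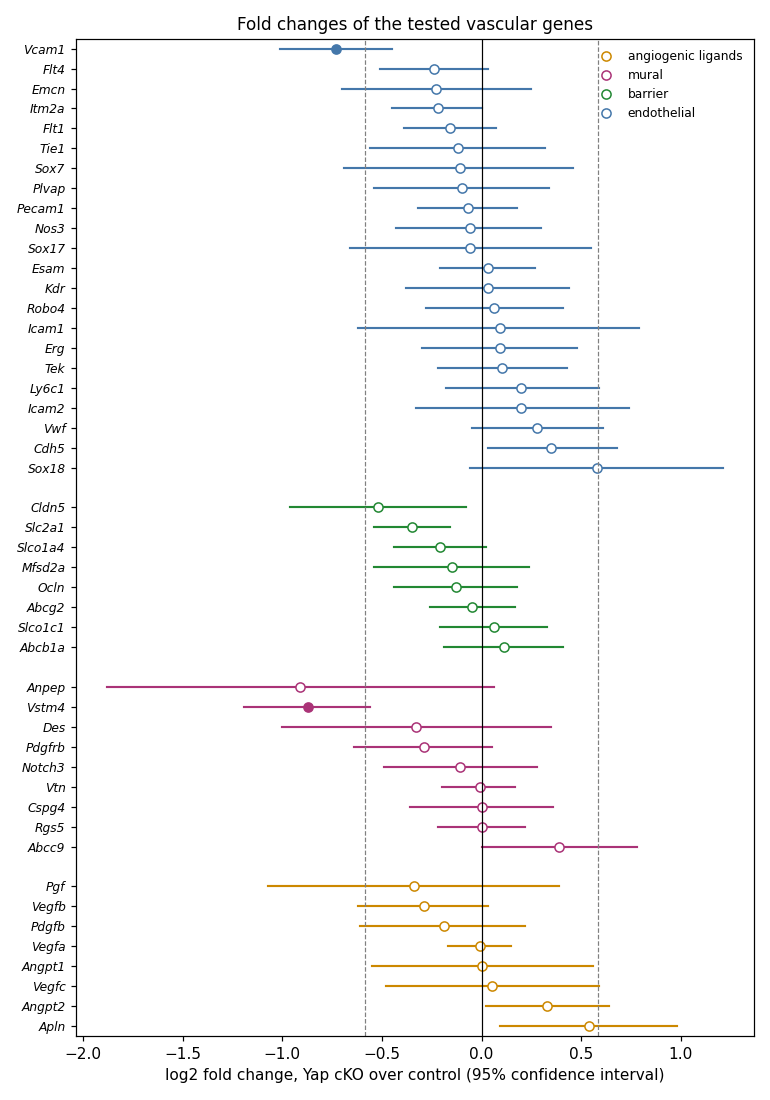
Log2 fold change of the 47 tested vascular genes, *Yap* cKO over control (horizontal axis), with 95% confidence intervals, by subgroup. Filled circles mark the 2 called genes, *Vcam1* (-0.73) and *Vstm4* (-0.87), dashed lines mark a 1.5-fold change, and all but 3 genes lie between them.

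Promoter sequence was examined for the genes that the comparison turned on. The RefSeq promoter table (GRCm38.p6, 250 bases before to 50 bases after each transcription start) held 40 promoters for 32 of the 48 genes, and none for *Vcam1*. Exact letters were searched on both strands for GGAATG, the core of sites bound by TEAD factors, through which YAP acts on DNA, and for ACGTG, the core of hypoxia response elements. The sequences are of *Vstm4*, the called gene with an entry, and *Slc2a1* and *Cldn5*, the barrier genes that were lowest relative to control. Capitals mark the motif letters, and each sequence runs 5′ to 3′ on the plus strand.
Vstm4: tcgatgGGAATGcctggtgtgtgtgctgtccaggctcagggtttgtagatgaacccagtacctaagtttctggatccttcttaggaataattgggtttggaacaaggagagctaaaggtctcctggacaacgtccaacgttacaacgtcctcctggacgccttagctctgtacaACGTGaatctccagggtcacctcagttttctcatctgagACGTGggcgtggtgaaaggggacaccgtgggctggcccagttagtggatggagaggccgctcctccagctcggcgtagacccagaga
Slc2a1: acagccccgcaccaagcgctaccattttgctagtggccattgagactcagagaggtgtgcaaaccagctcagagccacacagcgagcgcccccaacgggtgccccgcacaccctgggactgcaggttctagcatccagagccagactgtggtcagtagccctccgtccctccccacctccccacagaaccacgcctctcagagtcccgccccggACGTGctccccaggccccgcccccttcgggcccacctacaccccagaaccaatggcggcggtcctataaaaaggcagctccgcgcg
Cldn5: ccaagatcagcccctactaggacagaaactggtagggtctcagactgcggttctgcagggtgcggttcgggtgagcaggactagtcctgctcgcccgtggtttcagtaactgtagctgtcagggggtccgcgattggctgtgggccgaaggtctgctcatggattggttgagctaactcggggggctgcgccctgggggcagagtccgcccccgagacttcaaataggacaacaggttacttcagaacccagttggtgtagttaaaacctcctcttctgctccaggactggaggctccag

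The *Vstm4* window (chr14:32856506-32856805) held GGAATG at -244 and ACGTG at -76 and -37 relative to the start. The *Slc2a1* window (chr4:119108495-119108794) held ACGTG at -36, and the *Cldn5* window (chr16:18776597-18776896) held neither. GGAATG was present in 8 of the 40 promoters of vascular genes (20%, of 7 genes) and in 14.7% of the 32851 promoters of the table. ACGTG was present in 6 of the 40 (15%, of 6 genes) and in 19.6% of the table. The letters describe the windows only, and binding was not measured.

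Among endothelial genes, the adhesion molecule *Vcam1* stood apart from the general endothelial markers. VCAM1 is a surface protein that binds leukocyte integrins on activated endothelium and is also found on other cell types. *Vcam1* (ENSMUSG00000027962, chromosome 3, 116109949 to 116129688 of GRCm38) was at 7.81, 9.26 and 9.39 TPM in controls (throughout in the order YR612, YR613, YR615) and at 6.55, 5.25 and 4.82 TPM in *Yap* cKO retinas (in the order YR711, YR713, YR714). Every *Yap* cKO retina lay below every control retina, on 292 to 640 counts per retina. Means were 8.82 ± 0.877 and 5.54 ± 0.901 TPM (SD, n = 3 each), a log2 fold change of -0.73 (standard error 0.12, edgeR quasi-likelihood adjusted p = 0.0265). Corrected for gene length, the log2 fold change was -0.85. It was no longer called without control YR612 (edgeR adjusted p = 0.0767 by the same test), without control YR615 (0.144) or when *Yap* cKO YR713 was omitted (0.142). Leaving out 1 retina at a time gave log2 fold changes from -0.86 to -0.66.

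The other adhesion and junction molecules were not called. *Icam1* and *Icam2*, which bind leukocyte integrins of another family, had log2 fold changes of 0.09 and 0.20 with adjusted p-values of 0.887 and 0.639 by edgeR's test. They had only 18 to 48 and 23 to 47 counts per retina (standard errors 0.31 and 0.24). Their means were under 5 TPM in both groups, so neither could be called. *Pecam1*, the platelet endothelial adhesion molecule present at junctions of all endothelium, had 7.91, 7.75 and 7.98 TPM in controls and 7.92, 8.65 and 6.86 TPM in *Yap* cKO retinas. Its *Yap* cKO values spread around the control values, and the log2 fold change of -0.07 had a 95% confidence interval from -0.32 to 0.18. *Cdh5*, which encodes VE-cadherin of the adherens junctions, had 5.34, 4.44 and 5.42 TPM in controls against 6.0, 7.11 and 7.10 TPM in *Yap* cKO retinas. Each *Yap* cKO retina was above the controls, but the log2 fold change of 0.35 (standard error 0.14) did not pass the test after adjustment (edgeR adjusted p = 0.203).

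Receptors for angiogenic factors showed no called difference. *Kdr*, the main signalling receptor for VEGF-A, which neural and glial cells of the retina can also express, had 94.9, 113 and 87.2 TPM in controls and 141, 94.8 and 78.2 TPM in *Yap* cKO retinas. The *Yap* cKO retinas covered a wider range than the controls, with YR711 highest and YR714 lowest of all 6. Its log2 fold change was 0.03 (95% confidence interval -0.38 to 0.44), and its sign depended on the retinas included. *Flt1*, a VEGF receptor that also acts as a decoy, had 29.9, 35.3 and 29.5 TPM in controls and 33.3, 29.5 and 25.4 TPM in *Yap* cKO retinas, which overlap. Its log2 fold change was -0.16 (edgeR adjusted p = 0.374), but -0.39 with the length correction (adjusted p = 0.0162), which is below the 1.5-fold minimum. *Flt1* has 13504 exonic bases against a median of 4222 for the tested vascular genes. *Tek*, the receptor for angiopoietins, had 8.07, 6.66 and 8.15 TPM in controls and 9.14, 9.39 and 7.08 TPM in *Yap* cKO retinas, for a log2 fold change of 0.10 (95% confidence interval -0.22 to 0.43). *Plvap*, which forms the diaphragms of fenestrated endothelium and is low in barrier vessels, had 13.3, 10.3 and 13.6 TPM in controls and 9.77, 11.3 and 15.0 TPM in *Yap* cKO retinas. Values of *Plvap* overlapped throughout, with a log2 fold change of -0.10 (95% confidence interval -0.54 to 0.34).

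The remaining 15 tested endothelial genes had log2 fold changes from -0.24 (*Flt4*, the receptor for VEGF-C) to 0.58 (*Sox18*, a transcription factor of endothelial cells), 8 above and 7 below 0, and their lowest adjusted p was 0.235 by edgeR's test. *Sox7*, *Sox17* and *Erg*, the other endothelial transcription factors of the list, lay between -0.11 and 0.09. Retinas did not overlap for 3 of the 15, higher for *Vwf* (log2 fold change 0.28) and lower for *Flt4* and *Itm2a* (-0.24 and -0.22). *Vwf*, which encodes von Willebrand factor and has 16064 exonic bases, was at -0.02 after the length correction. *Aplnr*, the apelin receptor, had 1 to 5 counts per retina and was not tested. Over the 22 tested endothelial genes, 11 were higher and 11 lower, with a median log2 fold change of -0.01.

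Log2 fold changes were below 0 for 6 of the 8 barrier genes (75.0%, against 49.7% of all genes tested). By edgeR or by DESeq2, 0 of 8 were called. The 6 include *Abcg2* at -0.05, with a mean TPM of 8.01 in controls and 8.06 in *Yap* cKO retinas. Unadjusted, 2 of the 8 had a p of at most 0.05 in edgeR's test, both lower. Over all genes tested, 21.4% had such a p in either direction. *Slc2a1*, which encodes the glucose transporter GLUT1 of barrier endothelium and is also present in pigment epithelium, photoreceptors and glia, was the barrier gene with the most RNA. It had 331, 303 and 294 TPM in controls and 249, 261 and 248 TPM in *Yap* cKO retinas. Groups did not overlap, and the means were 309 ± 19.6 and 253 ± 7.22 TPM (SD, n = 3 each). For the log2 fold change of -0.35 (standard error 0.083), the quasi-likelihood test of edgeR gave an adjusted p of 0.0741, DESeq2 gave 0.0104 and edgeR's likelihood ratio test gave 0.017, and its size stayed under the 1.5-fold minimum in each. *Cldn5*, the main claudin of endothelial tight junctions, had 62.0, 37.0 and 53.8 TPM in controls and 31.8, 38.1 and 41.2 TPM in *Yap* cKO retinas. Control YR613 was within the *Yap* cKO range while the other controls were above it. Its log2 fold change was -0.52 (standard error 0.20, edgeR adjusted p = 0.181). Without control YR613 it was -0.72 with an adjusted p of 0.0199, which passed all criteria, and without control YR612 it was -0.33 with an adjusted p of 0.49. With all 6 retinas and the length correction it was -0.38 (edgeR adjusted p = 0.205).

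The other transporters of the barrier list overlapped between the groups. *Mfsd2a*, a lipid transporter that restrains vesicle transport across barrier endothelium, had 6.13, 5.45 and 7.75 TPM in controls and 5.84, 5.77 and 6.57 TPM in *Yap* cKO retinas, for a log2 fold change of -0.15 (95% confidence interval -0.54 to 0.24). *Abcb1a*, which encodes the drug efflux pump P-glycoprotein, had 9.27, 8.87 and 8.55 TPM in controls and 11.3, 10.7 and 8.04 TPM in *Yap* cKO retinas, for a log2 fold change of 0.11 (95% confidence interval -0.19 to 0.41). *Abcb1a* was higher than control in YR711 and YR713 and lower in YR714. For *Slco1a4*, *Slco1c1*, *Abcg2* and *Ocln*, which encode organic anion transporters, an efflux pump and the junction protein occludin, log2 fold changes lay between -0.21 and 0.06 with a lowest adjusted p of 0.257. The summed level of the 8 barrier genes was 396.2 to 449.9 TPM in controls and 338.5 to 357.4 TPM in *Yap* cKO retinas, and *Slc2a1* made up most of it.

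**Figure D2:**
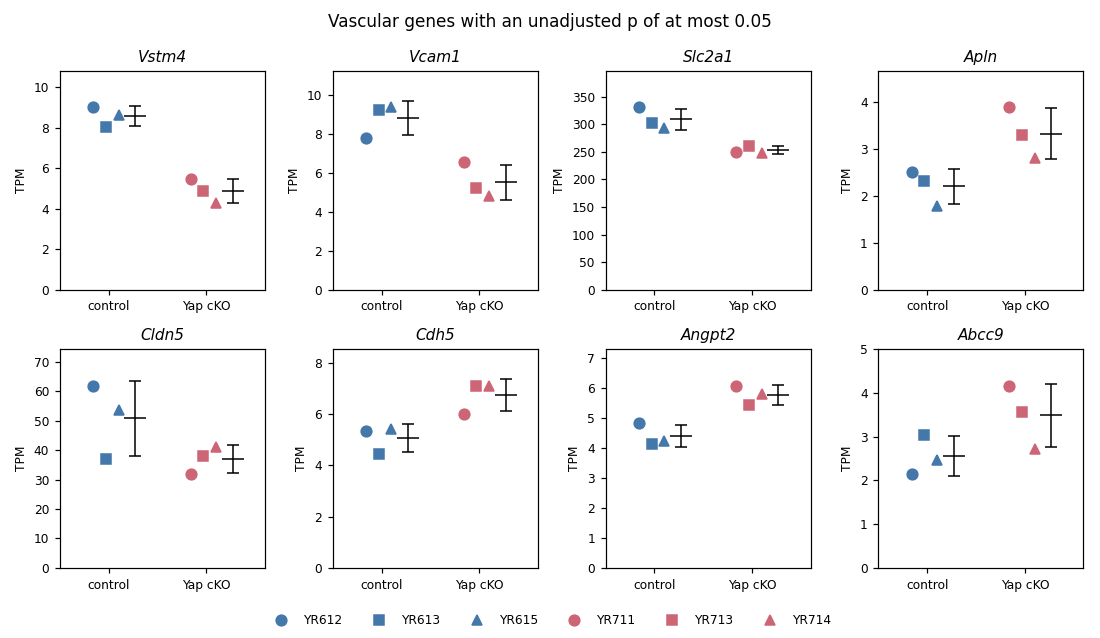
TPM (vertical axis, from 0) of the 8 vascular genes with an unadjusted p of at most 0.05 in each control (blue) and *Yap* cKO (red) retina, with the mean and SD of 3 retinas beside the points. Groups are apart for *Vstm4*, *Vcam1*, *Slc2a1*, *Apln*, *Cdh5* and *Angpt2*, and overlap for *Cldn5* and *Abcc9*.

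Mural genes differed in 1 member, *Vstm4*, and 0 of the other 8 were called. Of these, *Cspg4*, *Abcc9*, *Notch3*, *Des* and *Anpep* had means under 5 TPM in both groups and could not be called. No mural gene beside *Vstm4* had an adjusted p of at most 0.05 in edgeR's quasi-likelihood test. *Vstm4* encodes an immunoglobulin domain protein of the cell surface that has been found in pericytes. *Vstm4* (ENSMUSG00000050666, chromosome 14, 32856756 to 32939491 of GRCm38) had 9.0, 8.03 and 8.63 TPM in controls and 5.48, 4.86 and 4.26 TPM in *Yap* cKO retinas. The groups did not overlap, on 80 to 182 counts per retina, at 8.55 ± 0.491 and 4.87 ± 0.605 TPM (SD, n = 3 each), a log2 fold change of -0.87 (standard error 0.14, edgeR quasi-likelihood adjusted p = 0.0228). Corrected for gene length it was -0.79. It was no longer called without control YR612 (edgeR adjusted p = 0.117 by the same test), without control YR615 (0.115) or when *Yap* cKO YR713 was omitted (0.108), with a log2 fold change between -0.96 and -0.81 over all 6 retinas left out in turn.

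*Pdgfrb*, the pericyte receptor for PDGF-B, had 11.4, 11.8 and 9.48 TPM in controls and 11.5, 8.71 and 7.64 TPM in *Yap* cKO retinas. YR711 lay within the control range and the other *Yap* cKO retinas below it, and the log2 fold change was -0.29 (standard error 0.15, edgeR adjusted p = 0.295). *Rgs5*, a regulator of G protein signalling abundant in pericytes, had 71.0, 68.2 and 72.3 TPM in controls and 82.9, 74.7 and 63.1 TPM in *Yap* cKO retinas, for a log2 fold change of 0.00 with a 95% confidence interval from -0.22 to 0.22. *Cspg4*, which encodes the proteoglycan NG2, had 0.775, 0.673 and 0.763 TPM in controls and 0.800, 0.722 and 0.785 TPM in *Yap* cKO retinas. Both groups of *Cspg4* values covered the same low range. *Abcc9*, a subunit of the potassium channels of pericytes, had 2.14, 3.05 and 2.47 TPM in controls and 4.17, 3.57 and 2.73 TPM in *Yap* cKO retinas, for a log2 fold change of 0.39 (standard error 0.17, edgeR adjusted p = 0.229) with YR714 inside the control range.

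The other 4 mural genes had log2 fold changes from -0.91 for *Anpep* to -0.01 for *Vtn*. *Anpep*, an aminopeptidase, had 0.512 ± 0.158 TPM in controls, and the lowest adjusted p of the 4 was 0.255 by edgeR's test. *Vtn*, which encodes the matrix protein vitronectin and marks pericytes in brain vessels, stood at 2100 to 2310 TPM in the 6 retinas, above every other gene of the list, the next being *Slc2a1*. The next mural gene, *Rgs5*, had 63.1 to 82.9 TPM. Which cells of the retina gave the *Vtn* RNA was not tested, so its level cannot be read as that of pericytes. In all, 2 of 9 mural genes had log2 fold changes above 0 and 7 below (77.8%, against 49.7% of all genes tested). Their median was -0.11. *Rgs5* (0.00), *Cspg4* (-0.00) and *Vtn* (-0.01) lay at or next to 0, so their signs carry little weight. Mean TPM of *Cspg4* and *Vtn* was higher in *Yap* cKO retinas (0.769 and 2230) than in controls (0.737 and 2160). Fold changes came from the edgeR fit to counts, not from TPM.

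Summed over general markers, vessel wall RNA overlapped between the groups. The summed level of 8 general endothelial genes (*Pecam1*, *Cdh5*, *Tie1*, *Tek*, *Kdr*, *Flt1*, *Esam* and *Emcn*) was 176.9, 194.8 and 173.6 TPM in controls and 228.8, 183.6 and 157.2 TPM in *Yap* cKO retinas. *Kdr* was the largest term, and without it the sums were 82.01, 82.21 and 86.34 TPM against 87.53, 88.81 and 79.01 TPM. Retinas of the groups overlapped in either sum. For 5 general mural genes (*Pdgfrb*, *Rgs5*, *Cspg4*, *Abcc9* and *Notch3*) the sums were 87.76, 85.72 and 87.18 TPM in controls and 101.8, 90.0 and 75.88 TPM in *Yap* cKO retinas, on either side of the narrow control range. *Rgs5* made up most of the mural sum, with a mean of 70.5 of 86.89 TPM in controls. The ratio of mural to endothelial sums was 0.4795 ± 0.0342 in controls and 0.4727 ± 0.0241 in *Yap* cKO retinas (SD, n = 3 each). With *Kdr* left out of the endothelial sum, the ratio was 1.041 ± 0.0302 in controls and 1.046 ± 0.105 in *Yap* cKO retinas. Both ratios rest largely on single genes and do not measure pericyte coverage. YR711 was the highest and YR714 the lowest *Yap* cKO retina in the mural sum and in the endothelial sum with *Kdr*, while YR713 was highest in the endothelial sum without it.

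**Figure D3:**
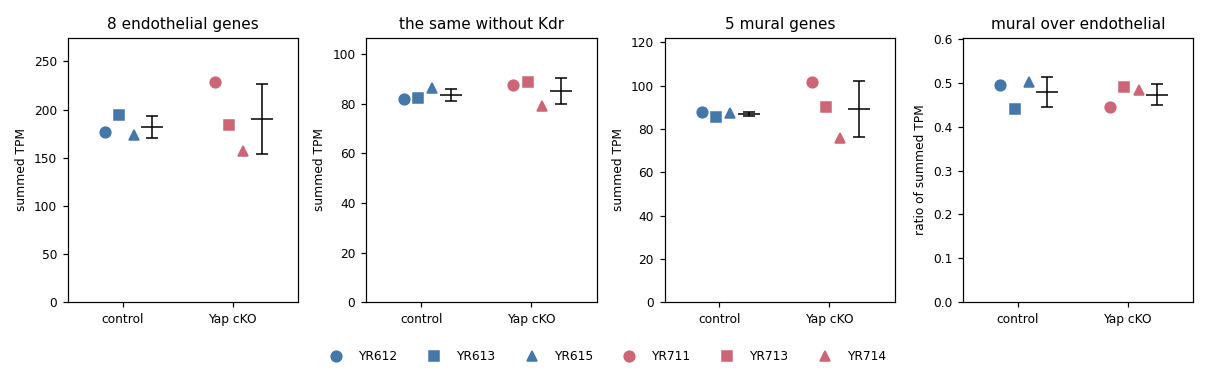
Summed TPM of 8 endothelial genes, of the same genes without *Kdr* and of 5 mural genes, and the ratio of mural to endothelial sums (vertical axes, from 0), in each control (blue) and *Yap* cKO (red) retina with the mean and SD of 3 retinas. The groups overlap in each panel, and *Yap* cKO retinas spread more widely than controls in the 3 sums.

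Of the 8 angiogenic ligands, 0 were called by edgeR or by DESeq2, and 2, *Angpt2* and *Apln*, had an unadjusted p of at most 0.05 in edgeR's test. Such a p was found for 21.4% of all genes tested. *Vegfc*, *Pgf*, *Angpt1*, *Pdgfb* and *Apln* had means under 5 TPM in both groups and could not be called at any fold change. Without regard to level, 0 of the 8 had an adjusted p of at most 0.05 in edgeR's quasi-likelihood test. *Vegfa*, the principal angiogenic and permeability factor of the retina, had 63.7, 64.7 and 67.8 TPM in controls and 68.7, 69.8 and 64.9 TPM in *Yap* cKO retinas. Its log2 fold change of -0.01 had a 95% confidence interval from -0.17 to 0.15. *Angpt2*, the angiopoietin that destabilises vessels when VEGF is present, had 4.81, 4.11 and 4.23 TPM in controls and 6.07, 5.42 and 5.79 TPM in *Yap* cKO retinas. The groups did not overlap, at 4.38 ± 0.371 and 5.76 ± 0.325 TPM (SD, n = 3 each), but the log2 fold change of 0.33 (standard error 0.14) did not pass the test after adjustment (edgeR adjusted p = 0.206). *Angpt1*, the angiopoietin that keeps vessels quiescent, had 0.728, 1.43 and 1.17 TPM in controls and 1.32, 1.17 and 0.984 TPM in *Yap* cKO retinas, with overlapping groups and a log2 fold change of 0.00 (95% confidence interval -0.55 to 0.56).

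*Apln*, which encodes apelin, a peptide made by sprouting endothelial tips, had 2.50, 2.32 and 1.78 TPM in controls and 3.88, 3.28 and 2.79 TPM in *Yap* cKO retinas. All *Yap* cKO values were above the controls, with a log2 fold change of 0.54 (standard error 0.20, edgeR adjusted p = 0.174). *Pdgfb*, the ligand that recruits pericytes, had 4.37, 3.16 and 4.50 TPM in controls and 3.84, 4.09 and 3.06 TPM in *Yap* cKO retinas, for a log2 fold change of -0.19 (95% confidence interval -0.61 to 0.22). The remaining ligands *Vegfb*, *Vegfc* and *Pgf* had log2 fold changes of -0.29, 0.05 and -0.34 with a lowest adjusted p of 0.268. Ligand members were evenly split, 4 higher and 4 lower, with a median log2 fold change of 0.00.

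Within each group, the order of the retinas was counted over the 47 tested genes. Control YR613 had the lowest control value for 27 (57.4%, against 29.4% of all genes tested), and *Yap* cKO YR714 had the lowest *Yap* cKO value for 24 (51.1%, against 44.3%). YR711 was the highest *Yap* cKO retina for 21 genes (44.7%, against 41.0%) and the lowest for 14. It was highest for 7 of the 9 mural genes and for 8 of the 22 endothelial genes, of which YR713 was highest for 10. Relative to the average retina, expression rose with exonic length in some libraries and fell in others, with a Spearman's rho across genes of -0.413 in YR612, 0.172 in YR613, -0.404 in YR615, 0.395 in YR711, 0.384 in YR713 and -0.151 in YR714. The log2 fold change between the groups also rose with exonic length (rho = 0.391). Genes are not independent replicates, and these values are a description. With the length correction, *Vcam1* and *Vstm4* were still called, and subgroup medians were -0.03 for endothelial, -0.13 for barrier and -0.21 for mural genes and -0.01 for ligands.

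Other genes of vessel signalling were examined in 10 lists with 49 symbols, of which 45 genes were tested. By edgeR's test 0 were called higher and 2 were called lower (4.44%, against 0.796% of all genes tested), and 21 lay above and 24 below control. An unadjusted p of at most 0.05 was found for 7 higher and 6 lower genes (28.9%, against 21.4% of all genes). The called genes both belonged to the list of basement membrane and angiostatic factors. *Col18a1*, whose product releases the angiogenesis inhibitor endostatin, had 41.3, 38.8 and 39.1 TPM in controls and 7.96, 13.9 and 9.86 TPM in *Yap* cKO retinas (log2 fold change -1.96, edgeR adjusted p = 0.00123). *Sparc*, a matricellular protein that binds collagen, had 288, 287 and 301 TPM in controls and 140, 151 and 134 TPM in *Yap* cKO retinas (log2 fold change -1.10, edgeR adjusted p = 0.000282). The other lists, on VEGF co-receptors, Notch, TGF-beta and BMP receptors, Tie partners, tip cells, the Norrin receptor complex, PDGF and apelin families and hypoxia, held 0 called genes. *Hif1a*, the oxygen-regulated transcription factor subunit and the most abundant of these genes, had 423, 576 and 459 TPM in controls and 672, 590 and 502 TPM in *Yap* cKO retinas, for a log2 fold change of 0.22 with overlapping groups (edgeR adjusted p = 0.313). *Vcam1*, *Vstm4*, *Col18a1* and *Sparc* are among the genes that the study itself picked from these samples, so their direction is not independent evidence.

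Markers of other tissues are given beside *Vcam1*, *Vstm4* and *Slc2a1*. Sums of connective tissue and melanin markers did not overlap between the groups, and those of ciliary and pigment epithelium did. The summed level of 8 connective tissue markers, of which *Pdgfra* is also in the astrocyte list, was 58.29 to 83.44 TPM in controls and 10.5 to 28.29 TPM in *Yap* cKO retinas. Of the 6 tested, *Fbln1* was called (log2 fold change -3.15, edgeR adjusted p = 0.0231), *Col1a2* (-2.16) had an adjusted p of 0.00236 below the TPM minimum, and *Mfap4* (-2.25) had an adjusted p of 0.0917. *Col1a1*, *Col3a1* and *Pdgfra* had log2 fold changes of 0.08, 0.00 and -0.05. *Lum*, at 0 in all *Yap* cKO retinas and in control YR613 and at most 0.248 TPM in the other controls, and *Dcn* were not tested. *Fbln1* and *Mfap4* made up most of the control sum. Ciliary non-pigmented epithelium summed to 308.8 to 323.1 TPM and 284.1 to 357.2 TPM, which overlap. Of its 5 markers *Slc26a4* (log2 fold change -5.03) and *Optc* (-3.41) were called lower, *Zic1* (-0.46) and *Wfdc1* (-0.43) were not called, and *Aqp1* (0.29, not called) made up most of the sum and lay higher, at 224 to 238 TPM in controls and 262 to 316 TPM in *Yap* cKO retinas. Melanin pigment cell markers summed to 70.55 to 77.89 TPM and 16.68 to 47.69 TPM, with *Pmel* called lower among 5. All 5 were below control, 4 of them at an unadjusted p of at most 0.05 in edgeR's test, which 21.4% of all genes tested had. Pigment epithelium markers summed to 619.9 to 686.1 TPM in controls and to 193.2, 356.7 and 668.2 TPM in YR711, YR713 and YR714, with 0 of 5 called and 1 lower by the unadjusted p. *Slc2a1* lay between 248 and 261 TPM in the same 3 retinas. The part of these tissues in the results of *Vcam1*, *Vstm4* and *Slc2a1* was not tested.

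**Figure D4:**
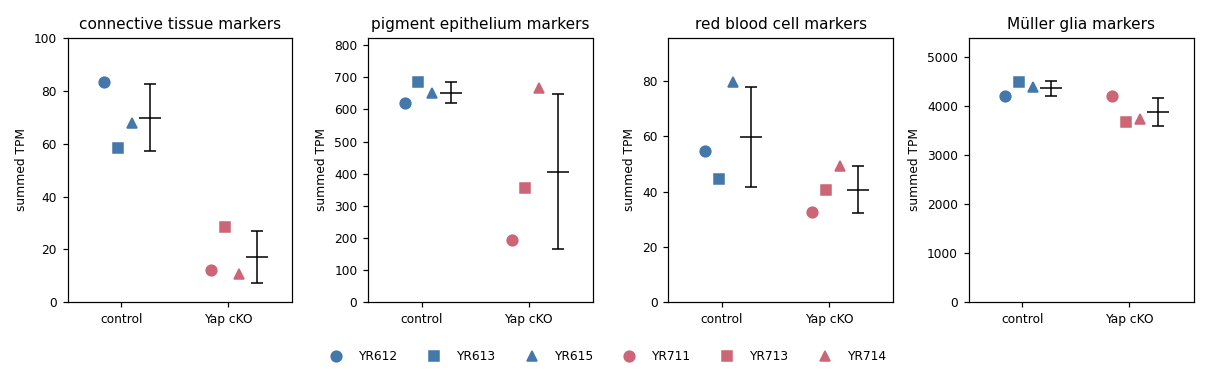
Summed TPM (vertical axes, from 0) of markers of connective tissue, pigment epithelium, red blood cells and Müller glia in each control (blue) and *Yap* cKO (red) retina, with the mean and SD of 3 retinas. Connective tissue sums are 58.29 to 83.44 TPM in controls and at most 28.29 TPM in *Yap* cKO retinas, and pigment epithelium sums fall to 193.2 TPM in YR711 but not in YR714.

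Markers of cells close to or inside vessels were summed in the same way. For comparison, 21.4% of all genes tested had an unadjusted p of at most 0.05 in edgeR's test. Smooth muscle markers summed to 49.78 to 58.83 TPM in controls and 47.49 to 63.9 TPM in *Yap* cKO retinas, with 0 of 4 tested genes called by edgeR and 1 lower at an unadjusted p of at most 0.05. Red blood cell markers summed to 44.77 to 79.8 TPM and 32.51 to 49.28 TPM, and 0 of 5 were called, with 2 lower by the unadjusted p. Markers of Müller glia, a cell type targeted for deletion, summed to 4199 to 4492 TPM and 3681 to 4206 TPM with 0 of 6 called, 1 being higher and 3 lower by the unadjusted p. Of 5 astrocyte markers *Aldh1l1* was called lower (log2 fold change -0.79, edgeR adjusted p = 0.00437), and their sums were 95.26 to 118.3 TPM and 93.66 to 104.2 TPM. *Gfap* (-0.33), *Pdgfra* (-0.05), *Pax2* (0.17) and *S100b* (0.12) were not called. Which cells gave the *Aldh1l1* RNA was not tested, so its difference cannot be read as one of astrocytes. Microglia markers summed to 28.57 to 34.19 TPM and 36.35 to 37.56 TPM, which do not overlap, with 0 of 5 called and 2 higher by the unadjusted p. Markers of lymphatic endothelium and perivascular macrophages summed to 17.89 to 19.31 TPM and 17.66 to 21.74 TPM with 0 of 2 tested genes called, and rod markers summed to 48200 to 51470 TPM and 45030 to 49360 TPM with 0 of 4 called, and neither list had an unadjusted p that low.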

How the data were processed

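Polyadenylated RNA from retinas of 3 control and 3 *Yap* cKO mice was sequenced as stranded paired-end libraries. The authors aligned reads to GRCm38 with STAR 2.7.3a and counted fragments on exons with featureCounts 1.6.2 (strand setting 2), and the deposited values are counts without normalization, with each gene's exonic length. The header of the count table names annotation release 98. No exon of another gene on the same strand overlapped the vascular genes. TPM was computed from counts and lengths. Tests used R 4.3.3 and edgeR 4.0.16 (quasi-likelihood test, filterByExpr by group, TMM, common dispersion 0.0126), with Benjamini-Hochberg adjustment over all 16575 genes tested. Standard errors and 95% intervals came from the same fit. Limma 3.58.1, DESeq2 1.42.0, edgeR's likelihood ratio test, other size factors, no filter on low counts, loess correction for length (span 0.3), other call criteria and leaving out each retina were alternatives. The steps were tested on simulated data. An exact permutation test of 3 against 3 retinas cannot reach p = 0.05, so none is given. Values in every retina are given for genes with an unadjusted p of at most 0.05 and for fixed reference genes of each subgroup, 21 in all, and the other 26 tested genes by ranges. The vascular genes, the lists and the tests were chosen with earlier results of these data known. Labels name no batch, litter or sex.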

Additional observations from a re-analysis of the deposited data

How the results depend on the processing

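The number of called genes was 2 with other size factors, library size only, DESeq2, the likelihood ratio test, limma-voom, no low-count filter, the length correction, no fold change minimum and no TPM minimum. Leaving out 1 retina at a time moved it from 0 to 3, with 0 for the omission of YR612, YR615 (controls) or YR713 (*Yap* cKO) and 3 for that of control YR613, where *Cldn5* was added. Over all genes the calls also moved, to 40, 38 and 68 without those 3 retinas, to 516 without control YR613 and to 448 without *Yap* cKO YR714. The number of vascular genes at an adjusted p up to 0.05 was 4 without the low-count filter (*Cldn5* and *Slc2a1* added) and 0 to 4 with single retinas left out. Signs reversed for genes near 0. *Kdr* was at -0.09 with the length correction and -0.24 to 0.19 with retinas left out, *Plvap* at -0.31 to 0.02 and *Vegfa* at -0.03 to 0.02. The cause was not tested. Of 273 values of single genes under alternatives, 254 kept direction and side of the threshold. No paired analysis was possible because the groups share no replicate numbers. *Angpt1* had 25 to 53 counts per retina. With 3 retinas a group, its 95% interval (-0.55 to 0.56) includes changes of nearly 1.5-fold either way. This interval is not a limit of detection, because a call also needed an adjusted p up to 0.05. Among tested vascular genes beyond 1.5-fold, *Vcam1* and *Vstm4* reached that p. *Anpep* did not, at a log2 fold change of -0.91 (edgeR adjusted p = 0.255), so larger changes can also go uncalled.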

Other observations

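Of the 45 tested genes of vessel signalling outside the 48, 12 had control and *Yap* cKO values that did not overlap (26.7%, against 24.3% of all genes tested), 7 higher and 5 lower in *Yap* cKO retinas. The lower genes include the called *Col18a1* and *Sparc*, and the other 10 did not pass the adjusted test and are named here after their values were seen. *Unc5b*, a netrin receptor of endothelial tip cells, had 8.16, 8.95 and 7.92 TPM in controls and 10.6, 15.5 and 14.9 TPM in *Yap* cKO retinas, for a log2 fold change of 0.66 (edgeR quasi-likelihood adjusted p = 0.0645) and 0.61 with the length correction. *Nrp1*, a co-receptor for VEGF-A, had 3.56, 3.74 and 3.15 TPM against 5.89, 5.05 and 4.55 TPM, a log2 fold change of 0.51 (adjusted p = 0.0826 by the same test) that was 0.37 with the correction for gene length. *Ptprb*, the phosphatase that opposes signalling by the angiopoietin receptor, had 6.39, 6.75 and 6.46 TPM against 10.1, 10.5 and 7.53 TPM. Its log2 fold change of 0.46 (edgeR adjusted p = 0.0861) was 0.23 with the length correction. *Col4a1* and *Col4a2*, the collagen chains of vessel basement membrane, had log2 fold changes of 0.23 and 0.30 (edgeR adjusted p = 0.177 and 0.106), which were 0.14 and 0.23 with the length correction. *Eng*, a TGF-beta co-receptor of endothelium, and *Ndp*, which encodes the ligand Norrin, were at 0.38 and 0.29 (edgeR adjusted p = 0.236 and 0.232). Among the lower genes, *Thbs1*, which encodes the angiogenesis inhibitor thrombospondin-1, had 8.91, 12.3 and 6.60 TPM in controls and 4.72, 6.55 and 5.86 TPM in *Yap* cKO retinas, with a log2 fold change of -0.75 (edgeR adjusted p = 0.109). *Adm*, which encodes the vasodilator peptide adrenomedullin, was at -0.74 (edgeR adjusted p = 0.138) and *Pdgfa* at -0.36 (edgeR adjusted p = 0.187). *Unc5b* and *Thbs1* are also among the genes that the study picked from these samples.

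Ratios between ligands and receptors overlapped between the groups. The ratio of *Angpt2* to *Angpt1* TPM was 2.876 to 6.601 in controls and 4.584 to 5.884 in *Yap* cKO retinas, that of *Vegfa* to *Kdr* 0.5752 to 0.7773 and 0.4863 to 0.8297, and that of *Pdgfb* to *Pdgfrb* 0.2675 to 0.4751 and 0.3332 to 0.4695.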
